A study of Homo sapiens with 4 samples.

Results

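Cholesterol and fatty acid synthesis was followed through 31 genes in PK-1 cells, a human pancreatic cancer cell line, in 4 mRNA sequencing libraries. The genes were taken by symbol from a list of pathway genes, and all 31 were found among the 53826 entities listed for each library. The list was chosen with earlier results of these data known, so its counts beside all entities are description only. They comprise 6 genes of the mevalonate arm, 11 of the squalene and sterol arm, 4 regulators of the SREBP system, 4 of acetyl-CoA and fatty acid synthesis, 4 of desaturation and elongation, and 2 of lipid transfer and glycerolipid synthesis.

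Cells make cholesterol from acetyl-CoA by way of mevalonate, isoprenoids, squalene and lanosterol, and make fatty acids from the same acetyl-CoA through malonyl-CoA. Both routes are controlled by the membrane-bound transcription factors SREBP1 and SREBP2, which the INSIG proteins hold back in the endoplasmic reticulum when sterols are plentiful, and whose release at low sterol switches on most enzymes of both routes together with INSIG1 itself. Pancreatic cancer cells, as other dividing cells, need these lipids to build membranes.

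The study compared PK-1 cells that overexpressed SPRR1A, a small proline-rich protein of squamous epithelium, with control cells in 2 models, and asked whether SPRR1A alters gene expression in pancreatic cancer cells. In the stable model, PK-1 cells had been infected with the pMXs retroviral vector, in which the viral long terminal repeat drives the insert, carrying FLAG-tagged SPRR1A or, as the control, the red fluorescent protein DsRed. In the transient model, PK-1 cells had been transfected by means of the FuGENE HD reagent with a pCAG plasmid carrying FLAG-tagged SPRR1A or, as the control, green fluorescent protein (GFP), and RNA was isolated 48 h later. All 4 groups were thus PK-1 cells that carried a vector and an introduced gene, and unmodified PK-1 cells are not among them. PK-1 is 1 cell line, and whether the infected cells were selected, cloned or kept as a mixed population is not given in the sources used here. The stable and the transient libraries differ at once in vector, in delivery and in time in culture, and these cannot be told apart. The controls differ in reporter as well, and the SPRR1A libraries in the level of SPRR1A. Each of the 4 groups had 1 library. The spread between replicates could therefore not be measured, no test is given, and every difference below compares libraries.

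Values are the log2 of the TPM that the authors deposited, a unit in which reads are divided by transcript length and each library is scaled to a total of 1000000, so that levels can be set side by side between genes. The lowest value is 0, given wherever the TPM did not exceed 1. Between 12964 and 13558 entities lay above that floor, and the depth in reads is unknown. SPRR1A itself stood at a log2 TPM of 0.75 in stable DsRed, 10.93 in stable SPRR1A, 3.56 in transient GFP and 16.60 in transient SPRR1A cells, in keeping with the labels, and took 9.90% of the TPM total in transient SPRR1A cells. All 6 epithelial and ductal markers examined (EPCAM, CDH1 and the keratins KRT7, KRT8, KRT18 and KRT19) lay between 7.03 and 12.9 on the log2 TPM scale, whereas the endothelial, leukocyte and hepatocyte markers were listed at 0 in all 4 libraries. Of the acinar markers PRSS1 reached at most 1.86, and of the fibroblast markers COL1A1 at most 2.62. Differences are log2 differences, and a gene was counted as higher or lower when it passed 2-fold, a log2 difference above 1 or below -1, among the 9658 entities whose TPM reached 5 or more in every library. That filter kept 29 of the 31 genes and left out TM7SF2 and FADS2.

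The lipid synthesis genes were mostly expressed at middle to high levels, as the plot of levels by library shows. The median of the 31 genes lay above 57.0% of the 9658 entities in stable DsRed cells, above 54.2% in stable SPRR1A, above 67.6% in transient GFP and above 66.5% in transient SPRR1A cells. FDPS, which makes farnesyl diphosphate, was the highest of the 31 in both stable libraries, at a TPM of 133.1 in DsRed and 129 in SPRR1A cells. SCD, the desaturase that makes monounsaturated fatty acids, took that place in both transient libraries, at a TPM of 202 in GFP and 137 in SPRR1A cells. ACLY, which supplies cytosolic acetyl-CoA from citrate, came next in all 4 libraries, at a TPM between 108.7 and 161. FADS2 was the lowest in all 4, at a TPM between 1.05 and 2.95. With 1 library a group, no order between neighbouring levels could be set against replicate error.

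**Figure D1:**
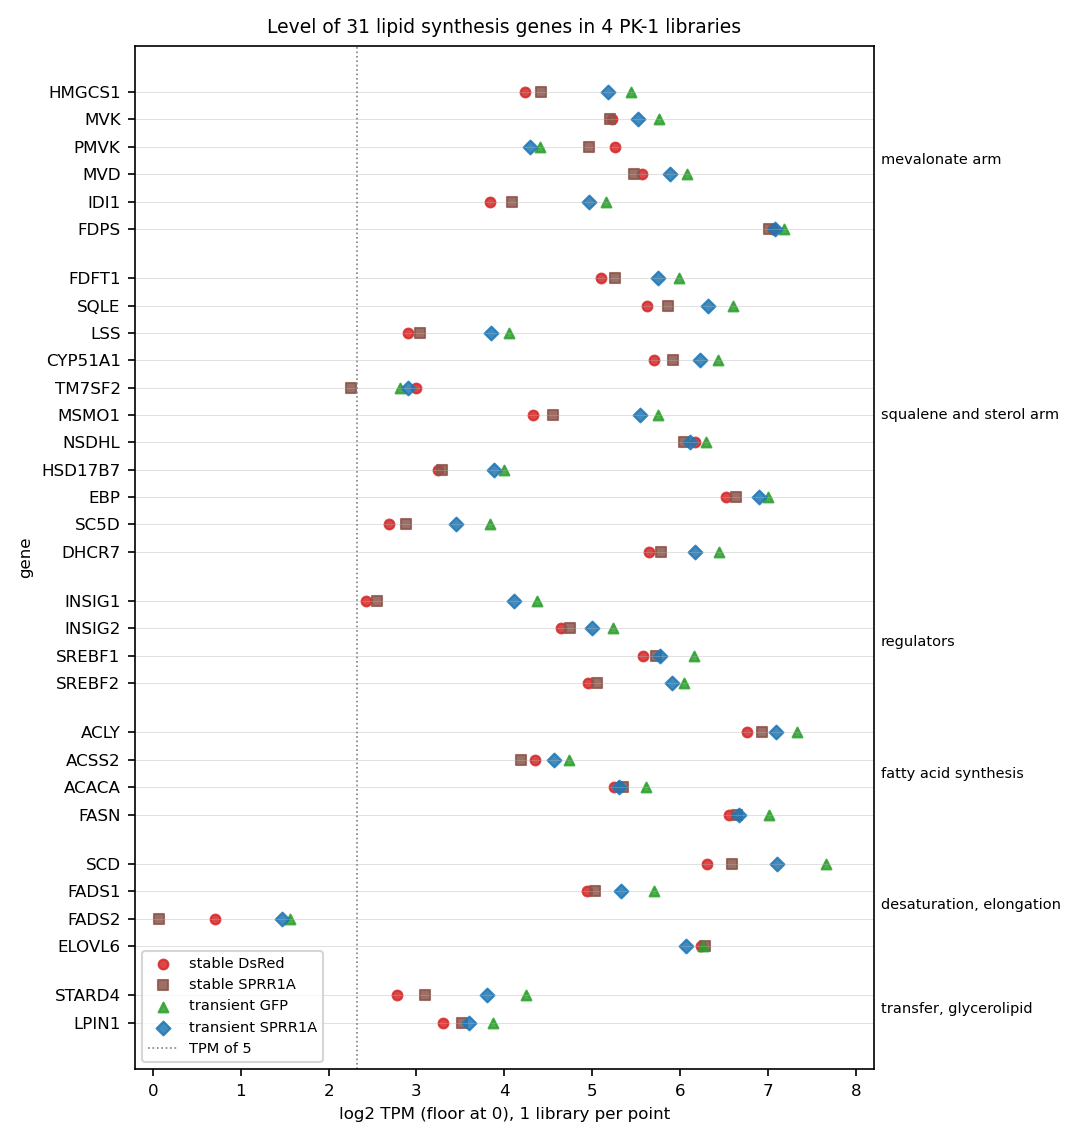
Level of each of the 31 lipid synthesis genes in the 4 libraries, as log2 TPM on the horizontal axis with genes in rows by role. Each point is 1 library, the floor is at 0, and the dotted line marks a TPM of 5. For most genes the points of both transient libraries (green triangles and blue diamonds) lie to the right of both stable ones (red circles and brown squares), whereas PMVK shows the opposite order and FDPS, NSDHL and ELOVL6 lie close together.

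Promoter sequences are shown for the 4 genes with the largest transient minus stable differences summed over both arms among the 29 past the filter whose promoter held a motif searched, because these carry the pattern described next. They run 5′ to 3′ from 250 bases before to 50 bases after a RefSeq transcription start (GRCh38.p14), and capitals mark matches to TCACNCCA, a core shared by classic sterol regulatory elements, or to CCAAT, the box bound by NF-Y, on either strand. INSIG1 lies at chr7:155297628-155297927 on the plus strand, MSMO1 at chr4:165327419-165327718 on the plus strand, IDI1 at chr10:1048837-1049136 on the minus strand and STARD4 at chr5:111512486-111512785 on the minus strand.
INSIG1: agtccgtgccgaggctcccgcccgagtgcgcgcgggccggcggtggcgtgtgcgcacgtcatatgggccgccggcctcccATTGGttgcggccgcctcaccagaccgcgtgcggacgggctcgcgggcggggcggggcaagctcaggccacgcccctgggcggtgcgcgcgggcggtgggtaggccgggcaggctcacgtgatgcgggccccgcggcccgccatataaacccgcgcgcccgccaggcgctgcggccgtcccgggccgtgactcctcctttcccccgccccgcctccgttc
MSMO1: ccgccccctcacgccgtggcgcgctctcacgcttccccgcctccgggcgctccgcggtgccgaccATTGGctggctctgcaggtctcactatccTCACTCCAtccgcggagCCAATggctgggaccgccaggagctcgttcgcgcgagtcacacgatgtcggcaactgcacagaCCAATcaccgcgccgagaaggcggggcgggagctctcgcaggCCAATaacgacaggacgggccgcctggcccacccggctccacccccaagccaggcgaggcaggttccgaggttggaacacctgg
IDI1: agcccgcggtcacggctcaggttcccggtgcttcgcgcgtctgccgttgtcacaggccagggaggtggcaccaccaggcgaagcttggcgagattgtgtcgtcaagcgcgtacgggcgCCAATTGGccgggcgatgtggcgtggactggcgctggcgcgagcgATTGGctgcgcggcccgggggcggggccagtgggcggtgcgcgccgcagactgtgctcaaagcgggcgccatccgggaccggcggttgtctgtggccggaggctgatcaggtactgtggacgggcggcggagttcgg
STARD4: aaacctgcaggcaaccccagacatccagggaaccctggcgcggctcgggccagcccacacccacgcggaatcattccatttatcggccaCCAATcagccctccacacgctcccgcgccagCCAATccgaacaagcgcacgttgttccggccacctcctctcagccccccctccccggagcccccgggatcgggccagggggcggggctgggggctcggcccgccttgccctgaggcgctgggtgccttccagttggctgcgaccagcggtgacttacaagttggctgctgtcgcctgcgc
MSMO1 held 1 match to TCACNCCA, which starts at position -156 from the transcription start, and 4 matches to CCAAT. INSIG1 held 1 match to CCAAT, STARD4 held 2, and IDI1 held 3, of which a pair on opposite strands overlap. Among the 28 genes with a promoter in the RefSeq table, CCAAT was found for 21, or 75.0%, against 39.7% of the 27305 genes of the table. TCACNCCA was found for 3 of the 28 (MSMO1, MVK and SREBF2), or 10.7%, against 4.80% of all genes. A gene counted when any of its promoters held a match, which favours genes with several. By promoter, CCAAT was in 61.0% of 41 against 34.6% of 35116, and TCACNCCA in 7.32% against 3.95%. The genes of the table were not limited to those expressed in these cells. CCAAT is short and the sterol element has degenerate forms that this string does not spell, so a match or its absence is a description of these letters only.

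The lipid synthesis genes were mostly at a higher level in transient than in stable cells. Between the controls, transient GFP minus stable DsRed, 28 of the 29 genes past the filter were above 0, with a median log2 difference of 0.74, and 9 were more than 2-fold higher against 3.22% of all 9658 entities. These were INSIG1, STARD4, MSMO1, SCD, IDI1, HMGCS1, SC5D, LSS and SREBF2. None was more than 2-fold lower, against 0.248% of all entities. All entities together were shifted by a median of 0.13, and 64.0% of them were above 0, so the lipid synthesis genes lay 0.61 above the median of all. After that shift was taken off each difference, 8 genes were past 2-fold higher, against 2.17% of all entities. At a minimum TPM of 10, which leaves out INSIG1, STARD4, LSS and SC5D among others, 5 of 23 genes were past 2-fold higher, against 2.23% of 7796 entities.

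In the SPRR1A arm, transient SPRR1A minus stable SPRR1A, which shares no library with the control arm, the median was 0.37 and 26 of the 29 genes were above 0. Here the median of all entities was -0.12 and only 34.1% of them were above 0, so the lipid synthesis genes lay 0.49 above the median of all, and 27 of the 29 lay above it. INSIG1 was the 1 gene more than 2-fold higher, against 0.994% of all entities, and none was more than 2-fold lower, against 0.28%. After the median of all entities was taken off, 2 genes were past 2-fold higher, against 1.4% of all entities. With SPRR1A out of the TPM total 3 genes were past 2-fold higher, against 1.54% of all entities. These were INSIG1 at 1.70, MSMO1 at 1.14 and IDI1 at 1.02. At a minimum TPM of 10, in the deposited values, none of 23 was, against 0.705% of 7796 entities. At a 1.5-fold threshold 16 genes were higher in the control arm, against 13.5% of all entities, and 8 in the SPRR1A arm, against 3.66%. PMVK was the 1 gene past 1.5-fold lower in each arm, against 1.86% of all entities in the control arm and 3.86% in the SPRR1A arm. In each arm 15 of the 29 genes were among the highest 10% of all differences, as 10% of entities are by construction. INSIG1 was past 2-fold higher in both arms, which 0.953% of all entities were, and 8 of the 29 genes were past 1.5-fold higher in both, which 3.37% were. Across the 29 genes the differences of the 2 arms moved together, with a Pearson r of 0.929 and a Spearman rho of 0.885, beside 0.834 and 0.802 across all 9658 entities. These are correlations across genes, which are not independent replicates, and both arms carry the same change of model. The large share of SPRR1A in transient SPRR1A cells lowers the other values there. With SPRR1A out of the TPM total the median of all entities in the SPRR1A arm was 0.03, in place of -0.12. Differences given by gene below are those of the deposited values unless stated.

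**Figure D2:**
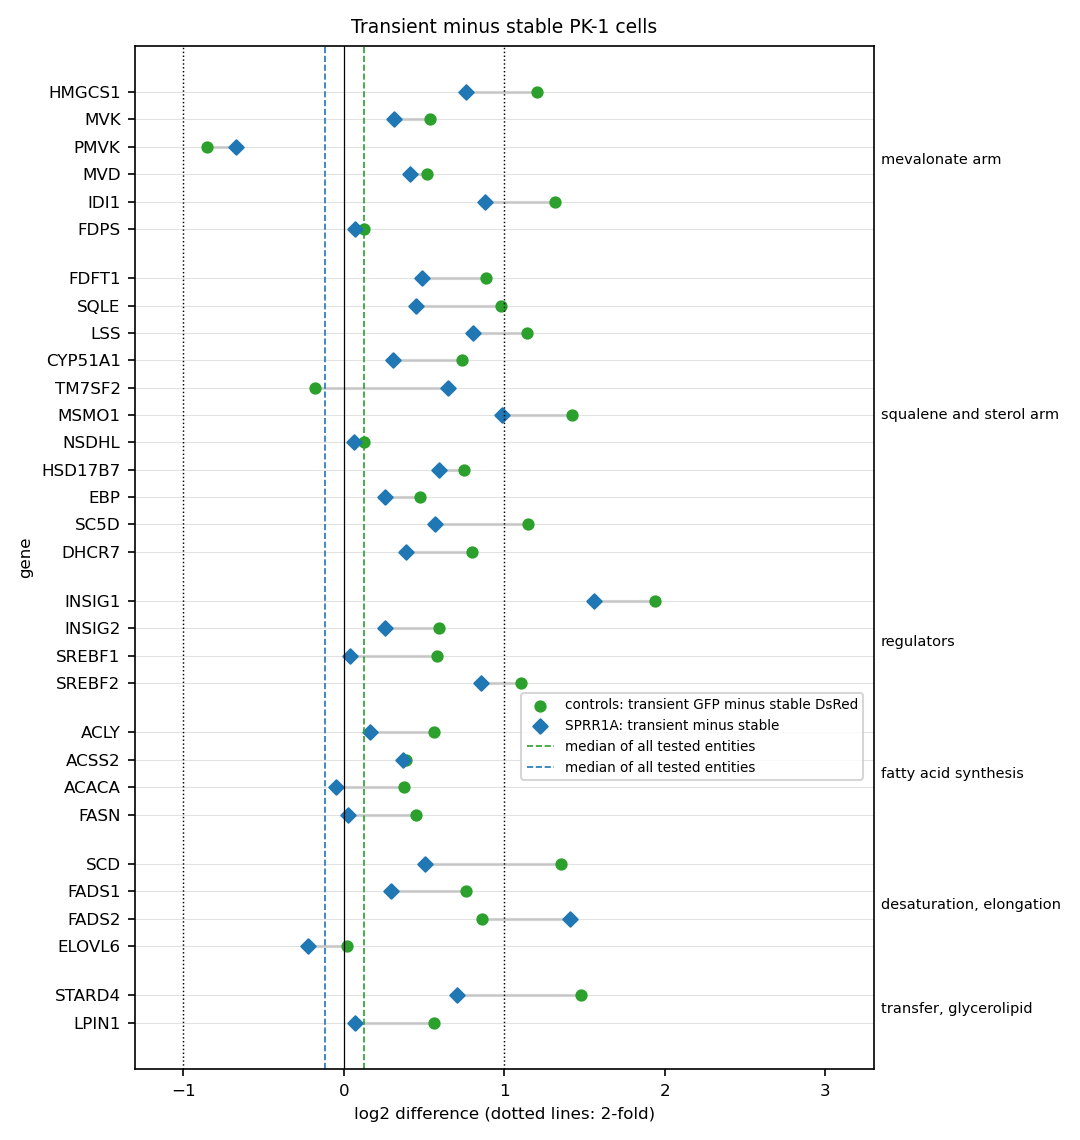
Log2 difference between transient and stable cells for each of the 31 genes, with the control arm as green circles and the SPRR1A arm as blue diamonds, joined by a grey line per gene. Dashed lines mark the median of all 9658 tested entities in each arm (0.13 and -0.12) and dotted lines mark 2-fold; INSIG1 lies farthest to the right among the tested genes in both arms, at 1.94 and 1.56, and PMVK farthest to the left, at -0.85 and -0.67.

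**Figure D3:**
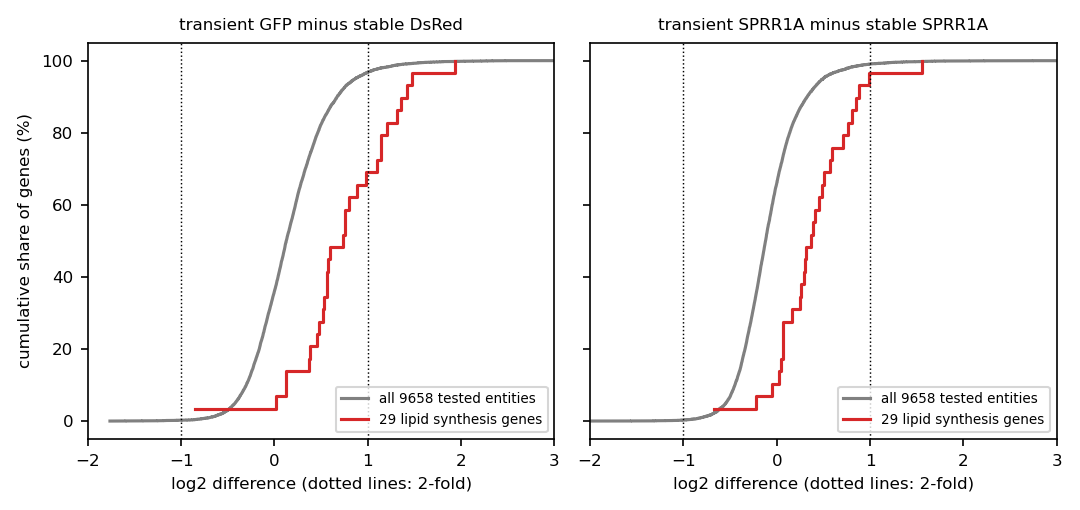
Cumulative share of genes (vertical axis, percent) against the log2 difference between transient and stable cells (horizontal axis), for the control arm on the left and the SPRR1A arm on the right. The red step line of the 29 lipid synthesis genes lies to the right of the grey line of all 9658 entities over nearly its whole length, with medians of 0.74 against 0.13 and of 0.37 against -0.12; entities beyond the axis limits are not drawn.

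Among the regulators, INSIG1, the sterol-responsive protein that retains SREBP in the endoplasmic reticulum, differed most. Its log2 TPM was 2.43 in stable DsRed, 2.55 in stable SPRR1A, 4.37 in transient GFP and 4.11 in transient SPRR1A cells. Both transient libraries were thus well above both stable ones, by 1.94 in the control arm and 1.56 in the SPRR1A arm, which placed INSIG1 25th and 27th among the 9658 entities. On the linear scale the TPM was 3.83 times and 2.94 times as high. INSIG2, its paralogue, which is less dependent on sterol, stood at 4.64, 4.74, 5.24 and 5.0 in the same order of libraries, with differences of 0.59 and 0.26. INSIG1 lay below INSIG2 in every library, and the log2 ratio of INSIG1 to INSIG2, which the scaling of a library cannot move, was -2.22 and -2.19 in the stable and -0.87 and -0.89 in the transient libraries.

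SREBF2, which encodes SREBP2, the main activator of the sterol genes, had a log2 TPM of 4.95 in stable DsRed, 5.05 in stable SPRR1A, 6.05 in transient GFP and 5.90 in transient SPRR1A cells. It was higher in both transient libraries, by 1.10 in the control arm, just past 2-fold, and by 0.85 in the SPRR1A arm. SREBF1, which encodes SREBP1, the main activator of the fatty acid genes, stood at 5.58, 5.73, 6.16 and 5.77. In the deposited values only the transient GFP library stood apart for SREBF1, with differences of 0.58 in the control arm and 0.04 in the SPRR1A arm. With SPRR1A out of the TPM total the difference of SREBF1 in the SPRR1A arm was 0.19. Within each library SREBF1 exceeded SREBF2 by 0.63 and 0.68 log2 units in the stable cells and by 0.11 in transient GFP cells, and lay below it in transient SPRR1A cells, at -0.13.

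The mevalonate arm was divided. HMGCS1, the synthase that condenses acetoacetyl-CoA and acetyl-CoA to HMG-CoA, had a log2 TPM of 4.24 in stable DsRed, 4.42 in stable SPRR1A, 5.44 in transient GFP and 5.18 in transient SPRR1A cells. IDI1, the isomerase that interconverts the isoprenoid building blocks, stood at 3.84, 4.08, 5.16 and 4.96. Both genes were higher in each transient library than in either stable library, HMGCS1 by 1.21 and 0.76 and IDI1 by 1.32 and 0.88 in the control and SPRR1A arms. PMVK, the second kinase of the arm, ran the other way, at 5.26, 4.96, 4.41 and 4.29. It was lower in both transient libraries, with differences of -0.85 and -0.67, and held place 9618 from the highest of 9658 entities in the control arm and place 9444 in the SPRR1A arm. HMGCS1 thus lay below PMVK in the stable libraries, with log2 ratios of -1.02 and -0.54, and above it in the transient ones, with 1.04 and 0.89. MVK and MVD, the first kinase and the decarboxylase, differed by 0.54 and 0.52 in the control arm and by 0.31 and 0.41 in the SPRR1A arm, and FDPS by 0.13 and 0.07. The median of the 6 genes was 0.53 in the control arm and 0.36 in the SPRR1A arm.

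In the squalene and sterol arm all 10 genes past the filter were above 0 in both comparisons, with medians of 0.84 and 0.47. MSMO1, the methylsterol oxidase that begins removal of a methyl pair from the sterol ring, differed most, at a log2 TPM of 4.33 in stable DsRed, 4.55 in stable SPRR1A, 5.75 in transient GFP and 5.54 in transient SPRR1A cells. Its differences of 1.42 and 0.99 put it 89th and 99th among the 9658 entities. LSS, which closes the rings to lanosterol, stood at 2.91, 3.04, 4.05 and 3.84, and SC5D, a late sterol desaturase, at 2.69, 2.88, 3.84 and 3.45. Both were past 2-fold in the control arm, at 1.14 for LSS and 1.15 for SC5D, and below it in the SPRR1A arm, at 0.80 and 0.57. SQLE, squalene epoxidase, stood at 5.62, 5.86, 6.60 and 6.31, and its difference of 0.98 in the control arm lay just under 2-fold. The other genes of the arm past the filter, which are FDFT1, CYP51A1, NSDHL, HSD17B7, EBP and DHCR7, differed by 0.13 to 0.88 in the control arm and by 0.06 to 0.59 in the SPRR1A arm, with NSDHL the smallest in each. Summed over the 11 genes the TPM was 401 in stable DsRed, 431 in stable SPRR1A, 647 in transient GFP and 562 in transient SPRR1A cells. TM7SF2, a sterol reductase below the filter, stood at 2.99, 2.25, 2.82 and 2.90 and showed no common order of the models.

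The genes that build fatty acids from acetyl-CoA differed less. ACLY, ACSS2, ACACA and FASN, which are ATP citrate lyase, an acetyl-CoA synthetase, acetyl-CoA carboxylase and fatty acid synthase, lay between 0.37 and 0.56 in the control arm and between -0.05 and 0.37 in the SPRR1A arm, with medians of 0.42 and 0.09. Relative to the median of all entities the 4 genes lay 0.29 and 0.21 higher. None passed 1.5-fold in either arm. Their medians were the lowest of the 6 roles in both arms, but with 2 to 10 tested genes a role and 1 library a group the difference between roles was not tested.

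SCD stood apart from these enzymes. Its log2 TPM was 6.30 in stable DsRed, 6.59 in stable SPRR1A, 7.66 in transient GFP and 7.10 in transient SPRR1A cells. Transient GFP cells held the highest level, 1.35 above stable DsRed, whereas the SPRR1A arm differed by 0.51. The log2 ratio of SCD to FASN was -0.25 and -0.05 in the stable libraries and 0.65 and 0.43 in the transient ones. ELOVL6, the elongase whose products SCD desaturates, differed by 0.02 and -0.23. FADS1, a desaturase of polyunsaturated fatty acids, stood at 4.94, 5.03, 5.70 and 5.32, with differences of 0.76 and 0.29. Its partner FADS2 stood at 0.71, 0.07, 1.56 and 1.47. FADS2 was past 2-fold in the SPRR1A arm, at 1.41, but its levels lie near the floor of a TPM of 1, and it was not among the genes tested.

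STARD4, which carries cholesterol between membranes, had a log2 TPM of 2.78 in stable DsRed, 3.10 in stable SPRR1A, 4.25 in transient GFP and 3.81 in transient SPRR1A cells. It was higher in both transient libraries, by 1.48 in the control arm, after INSIG1 the largest difference of the 29 genes, and by 0.71 in the SPRR1A arm. LPIN1, a phosphatidate phosphatase of glycerolipid synthesis, differed by 0.56 and 0.07.

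Summed over all 31 genes the TPM was 1264 in stable DsRed, 1339 in stable SPRR1A, 1942 in transient GFP and 1626 in transient SPRR1A cells, 1.54 times as high in the transient as in the stable control and 1.21 times in the SPRR1A arm. SPRR1A took 9.90% of the TPM total in transient SPRR1A cells, which lowers the sum there and the ratio of the SPRR1A arm. Neither this sum nor the other TPM sums given here were rescaled for it. Genes at a low level in stable cells tended to have the larger differences. Each difference subtracts a stable level, and both stable libraries measure much the same level, so part of this relation is built in. Set against the level in the stable library that the comparison does not use, the difference of the control arm had a Pearson r of -0.49 and a Spearman rho of -0.53 across the 29 genes, and that of the SPRR1A arm an r of -0.60 and a rho of -0.64, beside an r of -0.31 and -0.24 across all 9658 entities.

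Other genes of these pathways were drawn from a list of neighbours in sterol and fatty acid synthesis, SREBP processing, sterol transport and the LXR axis, of which 34 were found and 28 passed the filter. In the control arm 24 of the 28 were above 0, with a median of 0.36 beside 0.13 for all entities. Of the 28, 2 were more than 2-fold higher, against the same 3.22% of all entities. These were ACSL3, which activates long-chain fatty acids, at 5.13, 5.45, 6.30 and 6.06 in stable DsRed, stable SPRR1A, transient GFP and transient SPRR1A cells, and NPC1, which exports cholesterol from lysosomes, at 4.04, 4.19, 5.10 and 4.74. Their differences were 1.17 and 1.06 in the control arm and 0.61 and 0.54 in the SPRR1A arm. ABCA1, a cholesterol exporter controlled by LXR, was below the filter at 1.91, 2.29, 3.59 and 3.26 and differed by 1.68 and 0.97. In the SPRR1A arm none of the 28 was past 2-fold higher, against 0.994% of all entities, or lower, against 0.28%. Their median was 0.08, beside -0.12 for all entities. TMEM97, a sterol neighbour, was the lowest of the 28 in both arms, at -0.54 and -0.70. Of the genes whose products escort and cut SREBP, SCAP differed by -0.18 and -0.33, the protease gene MBTPS1 by 0.01 and -0.15, and the protease gene MBTPS2, which was below the filter, by 0.91 and 0.29. The values of the SPRR1A arm were not rescaled for SPRR1A, and that of MBTPS1 lay close to the median of all entities, -0.12.

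Interferon response genes differed in the same comparisons and by more. Of 10 such genes found, 9 passed the filter. Of these 9, 7 were more than 2-fold higher in both arms, which 0.953% of all entities were. The medians of the 9 were 1.98 and 1.56, and OAS1 was lower, at -0.13 and -0.10. The summed TPM of the 10 genes was 461 in stable DsRed, 432 in stable SPRR1A, 1534 in transient GFP and 1373 in transient SPRR1A cells, and MX1 was listed at 0 in all. Their part in the higher level of the lipid synthesis genes was not tested. The summed TPM of the 6 epithelial markers was 26470 and 25893 in the stable and 20034 and 18253 in the transient libraries, and its part was not tested either. The keratins had the highest levels and so weigh most in this sum. CDH1 alone of the 6 was higher in transient cells, by 0.71 in the control arm and 0.25 in the SPRR1A arm. EPCAM differed by -0.10 and -0.29.

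SPRR1A against control gave much smaller differences. In the stable model, stable SPRR1A minus stable DsRed, none of the 29 genes passed 2-fold in either direction, against 0.0311% of all entities higher and 0.0621% lower. The median was 0.13, beside 0.06 for all entities, and 23 of the 29 genes were above 0, as were 64.9% of all entities. Of the 29 genes, 2 were among the highest 10% and 2 among the lowest 10% of all differences. STARD4 and SCD, at 0.32 and 0.29, were the highest, followed by SQLE and IDI1 at 0.24 each, and PMVK and ACSS2, at -0.30 and -0.16, were the lowest. TM7SF2 and FADS2, outside the filter, were at -0.74 and -0.64.

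In the transient model, transient SPRR1A minus transient GFP, all 29 genes were below 0, as were most entities, of which 5.23% were above 0. None of the 29 passed 2-fold, against 0% of all entities higher and 0.0518% lower. The median of the 29 genes was -0.24, beside -0.18 for all entities. When each library was rescaled without its SPRR1A value, it was -0.089. None of the 29 was among the highest 10% of differences and 6 were among the lowest 10%. These 6 were SCD at -0.56, STARD4 at -0.44, SREBF1 and SC5D at -0.39, FADS1 at -0.38 and FASN at -0.33.

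SCD and STARD4, the highest of the 29 genes under SPRR1A in the stable model, were thus the lowest under SPRR1A in the transient model. The difference between the models, the transient minus the stable value, was -0.84 for SCD and -0.77 for STARD4. For the other 27 genes it lay between -0.58, for SC5D, and 0.18, for PMVK. The models share no library, but neither value has a replicate. In the levels given above, transient GFP cells held the highest and stable DsRed cells the lowest value of SCD and STARD4, with both SPRR1A libraries between the controls. The smaller gap between the models in the SPRR1A arm and these opposite signs are thus the same 4 values read in different ways. Neither the signs nor the order was particular to SCD and STARD4. Of the 29 genes, 23 were above 0 in the stable model and all 29 below 0 in the transient model. The medians of all entities were 0.06 and -0.18. Most of the 29 genes, among them INSIG1, HMGCS1, IDI1 and MSMO1, had the same order of libraries. The share of all entities with this order was not counted. With SPRR1A out of the TPM total the transient values were -0.41 for SCD and -0.29 for STARD4.

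**Figure D4:**
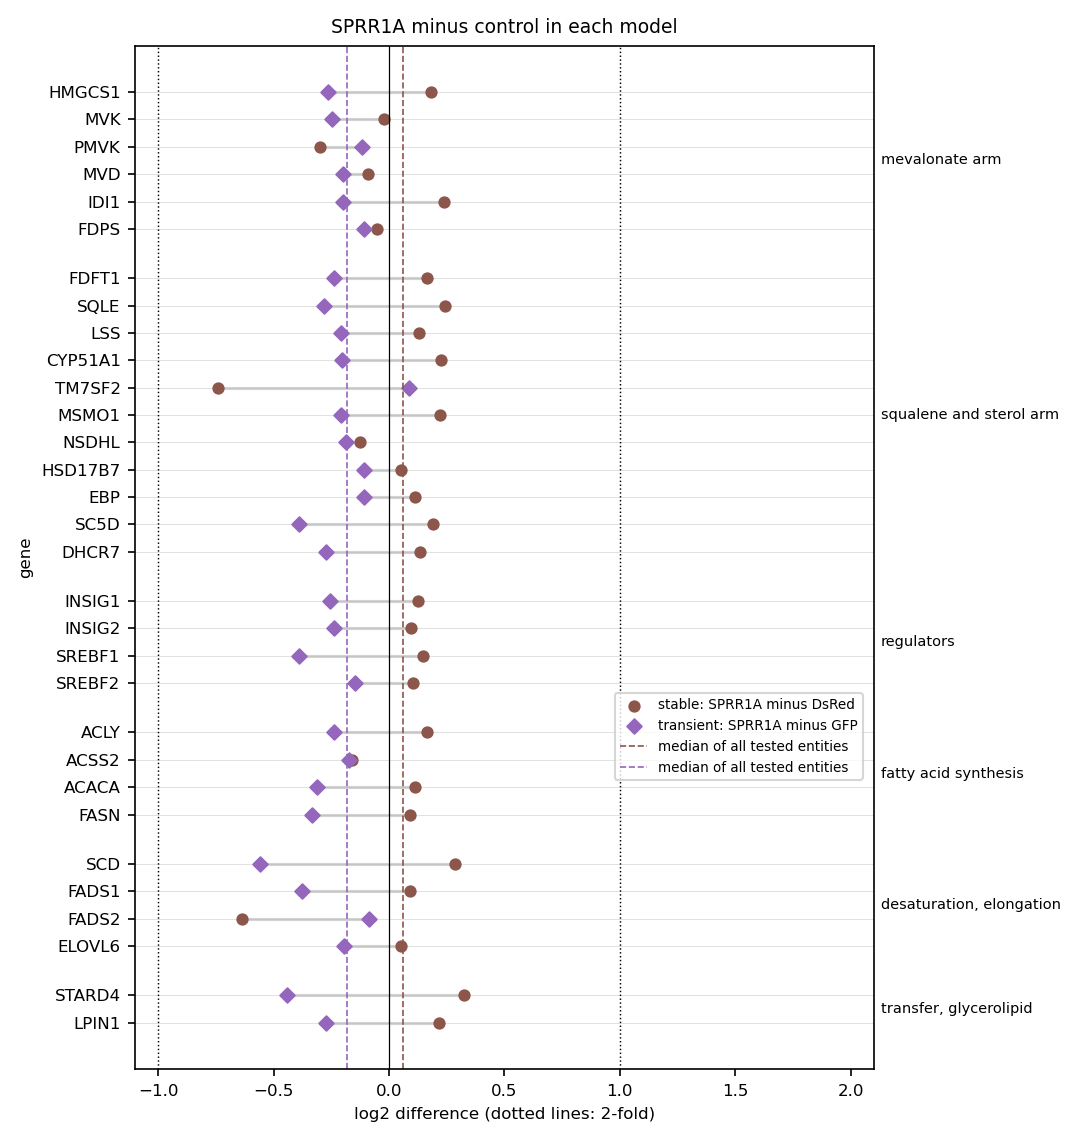
Log2 difference between SPRR1A and control cells for each of the 31 genes, in the stable model as brown circles and in the transient model as purple diamonds, joined by a grey line per gene. Dashed lines mark the median of all 9658 tested entities (0.06 and -0.18) and dotted lines mark 2-fold, which no gene reaches; SCD and STARD4 are among the genes with the widest gap between the models.

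RefSeq gave a position for all 31 genes by Entrez Gene identifier, on 15 chromosomes. INSIG1 spans 155297878 to 155310235 of chromosome 7, MSMO1 spans 165327669 to 165343164 of chromosome 4, IDI1 spans 1039152 to 1056704 of chromosome 10, STARD4 spans 111496033 to 111512535 of chromosome 5, SCD spans 100347233 to 100364826 of chromosome 10 and PMVK spans 154924740 to 154942658 of chromosome 1. The annotation has another gene overlapping 18 of the 31, among them the antisense RNAs STARD4-AS1 and SREBF2-AS1, and names pseudogenes for 5 of them (IDI1, FDPS, CYP51A1, HSD17B7 and SCD). Libraries were made with a stranded kit, but how the counting treated strand and reads that match several places is not given in the sources used here, so the levels of these genes are uncertain to that extent.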

How the data were processed

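Messenger RNA of 4 PK-1 cultures, 1 library per group, was sequenced in paired-end mode from stranded libraries. The authors aligned reads to the human transcriptome with Strand NGS at default parameters, with hg38 named as the genome build in the submitters' processing notes, and normalized them as TPM. The authors deposited the log2 of the TPM per gene, with a floor at 0. The versions of the software and annotation, and the treatment of multi-mapping reads, are not given in the sources used here. Scaling to a fixed total means that 1 very abundant transcript lowers the TPM of all others.

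Groups were taken from the sample labels. Log2 differences were computed for 4 comparisons, with a filter of a TPM of 5 or more in every library and calls past 2-fold, the rule of the study, and no test was run. The share of all entities called the same way is given as background. The 31 genes, the lists of other genes and the comparisons were chosen with earlier results of these data known. Values in every library are given for genes past 2-fold in any comparison, the 5 largest differences of each comparison and the 4 regulators. Of the other pathway genes, those past 2-fold were to be given with values, and SCAP, MBTPS1, MBTPS2, ABCA1 and TMEM97 were chosen after their values were seen. A few genes of that list are not reported here. Promoters came from RefSeq (GRCh38.p14), which matched 28 of the 31 genes, 10 of them with several starts. FDFT1, SQLE and FASN were not matched.

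Alternatives were log2(TPM + 1), log2(TPM + 0.1), SPRR1A left out of the TPM total, centring on the median of all entities, no filter, a minimum TPM of 10 and a 1.5-fold threshold. The counts among the highest and lowest 10% of differences and the centred calls were added after seeing the data. The depth in reads is unknown, so no counting interval is given. The calculations were tested on simulated data. Calculations used pandas 2.3.3, numpy 2.4.6 and scipy 1.17.1 under Python 3.11.15, and plots matplotlib 3.10.9.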

Additional observations from a re-analysis of the deposited data

How the results depend on the processing

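In the control arm, transient GFP minus stable DsRed, the 9 genes past 2-fold higher became 5 at a minimum TPM of 10 and 16 at 1.5-fold, where 1 was lower against 0 at 2-fold. The median of all 29 genes, 0.74, became 0.61 when centred and 0.58 at that minimum. In the SPRR1A arm the count of 1 became 3 with SPRR1A out of the TPM total, 2 when centred and 2 of 31 with no filter. With no filter 2.61% of 13549 entities were past 2-fold higher, against 0.994% with the filter. The count became 0 at a minimum TPM of 10, which leaves INSIG1 out, and 8 at 1.5-fold, where 1 was lower against 0. The shares of all entities under the other settings are given in the results above. The median of 0.37 became 0.52 with SPRR1A out of the total and 0.49 when centred. For transient SPRR1A minus transient GFP the median of -0.24 became -0.089 and -0.057 under the same settings. The counts and the median of stable SPRR1A minus stable DsRed stayed within the tolerance under the alternatives run, and no median changed sign. Of 124 values for the 31 genes in 4 comparisons, 8 moved by 0.1 or more under log2(TPM + 1), 0 under log2(TPM + 0.1), 62 with SPRR1A out of the total and 93 when centred. The last 2 settings shift all genes of a comparison by the same amount. Their counts therefore tell which comparisons shifted, not how single genes behaved.

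No paired analysis was possible because each group has 1 library. Leaving out a replicate was likewise not possible, and the spread between replicates is unknown for every value here. Depth in reads is unknown, and genes near a TPM of 1, such as FADS2, are limited by the floor. Vector, delivery and time in culture cannot be told apart in transient minus stable comparisons, nor, between the controls, can the reporter. Whether the libraries of both models were handled together is not given in the sources used here.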
